A study of Mus musculus with 24 samples.

Results

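The proteasome subunit genes were taken from the deposited count table by name alone: every gene symbol made of Psm, a letter from a to f and a number. They came to 44 of 23284 gene symbols. The core class (Psma and Psmb) held 19 genes, the regulatory class (Psmc and Psmd) 20, and the activator or inhibitor class (Psme and Psmf) 5. Of the 44, 43 passed the filter on low counts and were tested. The exception was Psmb11, the thymus-specific catalytic subunit gene, with 15 reads over all samples.

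Poly(A) RNA came from embryonic stem cells of C57BL/6 mice and their embryoid bodies, the free-floating aggregates in which such cells begin to differentiate. The study concerns EED, a core subunit of the Polycomb complex PRC2, and its title ties the breakdown of PRC2 to SKP1A, a subunit of SCF ubiquitin ligases. There were 4 lines: the conditional Eed line without tamoxifen (f/f), the line given 800 nM 4-hydroxytamoxifen to delete Eed (KO), and 2 lines labelled as KO cells with EED added back, called rescue lines here: 1 labelled with the wild-type form (KO+WT) and 1 with a form, N-KR, that the labels do not spell out (KO+N-KR). Both were also labelled as given tamoxifen. Every line was sampled in the state labelled 3i and in embryoid bodies of day 1 and of day 2, giving 12 groups of 2 libraries. The growth protocol names serum, LIF and feeder layers of embryonic fibroblasts for all samples, and the labels do not say whether a line is 1 clone or whether feeders were removed. The protocols also describe 10 µM MG132, a proteasome inhibitor, for 3 hours, but no title or treatment field assigns it to any of these libraries. Only f/f lacked tamoxifen, so against f/f the effects of genotype, drug and line history cannot be told apart.

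The proteasome degrades proteins tagged with ubiquitin. Its core particle is a barrel with alpha rings at its ends and beta rings in the middle, and 3 beta subunits, encoded by Psmb5, Psmb6 and Psmb7, cut peptide bonds. Interferon-induced counterparts encoded by Psmb8, Psmb9 and Psmb10 replace them in the immunoproteasome, which shapes peptides for antigen presentation. The regulatory particle has a ring of ATPases (Psmc genes) that unfolds substrates, and non-ATPase subunits (Psmd genes) that bind ubiquitin and remove it. The standard subunits assemble in fixed proportion.

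Paired libraries of a group were nearly the same draw (1.10 to 1.18 times the binomial variance over all genes, 0.850 to 1.58 times over the proteasome genes) and no label calls them separate cultures, so each pair was summed and counted as 1 sample. The 12 samples held 18017598 to 25160294 counts. Levels are in CPM, read counts scaled to library size with TMM factors, and a difference is a log2 fold change ± SE from edgeR's quasi-likelihood fit of line and state to the 12 samples, called at a Benjamini-Hochberg adjusted p under 0.05 over 15220 genes. The fit uses the 4 lines as the samples of a state and the 3 states as the samples of a line, and a low p means that a difference recurs evenly over them. It does not measure the spread between independent cultures. The Eed level over the 3 states was 174, 221 and 130.4 CPM for f/f and 137, 175 and 102 CPM for KO (-0.35 ± 0.10, adjusted p = 0.0479), a whole-gene count that does not check the deletion. It was 387, 373 and 188 CPM for KO+WT, above KO (1.17 ± 0.10, adjusted p = 1.75e-05), but 168, 182 and 121 CPM for the line labelled KO+N-KR, which was not called above KO (0.20 ± 0.10, adjusted p = 0.191) and was below KO+WT (-0.97 ± 0.10, adjusted p = 0.000301). The counts thus do not show added Eed in the line labelled KO+N-KR, and its comparisons below go by the label. Naive pluripotency markers summed to 2741 to 3929.5 CPM at 3i, 905 to 1188 at day 1 and 637 to 1009 at day 2, and formative epiblast markers to 81.3 to 108, 817 to 1484 and 566 to 1715 CPM. Feeder fibroblast markers summed to 699.7 to 1083, 119.7 to 188 and 109 to 188 CPM, and 13 of the 15 tested fell at each day against 3i. Lum was at or below 0.142 CPM in every sample. The part of the feeder cells in the state differences was not tested, and fewer cells of a type cannot be told apart from less RNA per cell.

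Proteasome transcripts rose in every line between 3i and day 1 of embryoid body formation. Of the 43 genes tested, 36 were higher at day 1, 0 were lower, and all 43 fold changes were above 0, where 32.4% of all genes tested were called higher and 33.2% lower. DESeq2 also gave 36 higher and 0 lower. Psmb8, which passed the filter through its embryoid body samples, had to differ from 3i, and without it 35 of 42 genes were higher. Their median was 0.44, against -0.0069 over all genes. In 33 of the 43 (32 of 42 without Psmb8), the lowest day 1 sample lay above the highest 3i sample, as in 25.6% of all genes. Leaving out Psmb8, the rise took in 15 of 17 core genes, 17 of 20 regulatory genes and 3 of 5 activator or inhibitor genes.

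The summed level of the 19 core genes was 2465, 2139.8, 2123 and 2123 CPM at 3i in f/f, KO, KO+WT and KO+N-KR, the order used for every set of 4 values below. It was 3269, 2905, 2879 and 2814 CPM at day 1 and 2554, 2427, 2526 and 2684 CPM at day 2. Each day 1 sample was therefore above each 3i sample, and in both of these states f/f was the highest line. The regulatory genes summed to 3458, 3094, 3161 and 3050.0 CPM at 3i, then 4727, 4400.2, 4449 and 4381, then 3623, 3395, 3489 and 3725. The activator and inhibitor genes summed to 633, 678, 723 and 676, then 763, 769.9, 877 and 836, then 797, 724, 813 and 822 CPM. From 3i to day 1 the mean log2 ratio of the summed level was 0.42 ± 0.02 for the core, 0.49 ± 0.03 for the regulatory class and 0.26 ± 0.05 for activators and inhibitors (SD, n = 4 lines). From day 1 to day 2 it was -0.22 ± 0.12, -0.34 ± 0.07 and -0.04 ± 0.08 (SD, n = 4).

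**Figure D1:**
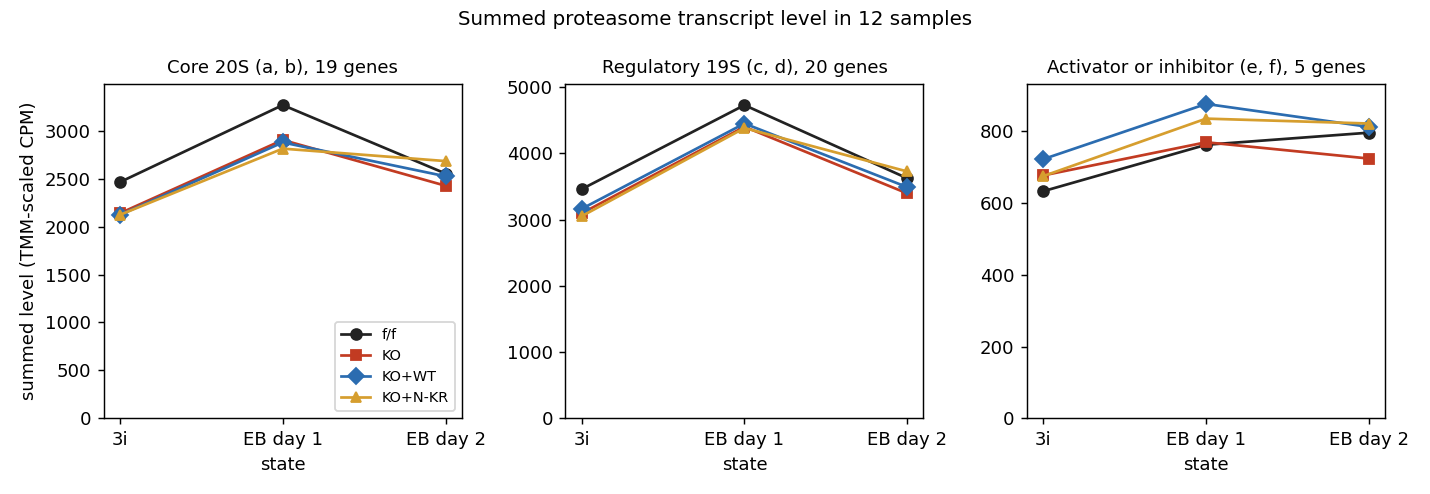
Summed level in TMM-scaled CPM (y axis, from 0) of the core, regulatory and activator or inhibitor genes in 3i, EB day 1 and EB day 2 (x axis), with 1 point per line and state and lines joining the states of a cell line. Core and regulatory sums peak at day 1 in all 4 lines, with the f/f core sum reaching 3269 CPM, while the third class changes less.

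Among the core genes, all 7 standard alpha genes, which form the outer rings and gate the barrel, rose at day 1. Psma5 rose most of them (0.62 ± 0.054, adjusted p = 3.97e-07), from 122, 109, 106 and 101 CPM at 3i to 177, 168, 159.8 and 168 CPM at day 1. Every day 1 sample exceeded every 3i sample. Psma6 followed (0.59 ± 0.058), and Psma1 changed least of the alpha genes (0.31 ± 0.054). Psma8, a testis-specific counterpart of Psma7, did not pass at day 1 (0.16 ± 0.07, adjusted p = 0.0556). It was read at 24.2, 24.1, 23.4 and 26.1 CPM at 3i, 27.6, 23.9, 29.4 and 28.9 on day 1, then 23.7, 19.9, 21.8 and 24 on day 2, and its ranges overlapped. Per kilobase of transcript, Psma8 made up 4.82% to 7.23% of the summed level of Psma8 and Psma7 over the 12 samples.

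The 3 catalytic genes rose together at day 1. Psmb5, whose subunit cuts after hydrophobic residues, stood at 139, 115, 118 and 118 CPM at 3i, 199, 160.3, 155 and 160.0 on day 1, then 141, 126, 140.3 and 150.5 on day 2. Day 1 was higher than 3i in all 4 lines (0.46 ± 0.063, adjusted p = 2.27e-05), and f/f was the highest line both times. Psmb6, the caspase-like subunit gene, went from 173, 143, 139 and 143 to 245, 218, 213 and 209.9 and then 173, 177, 173 and 185 CPM (0.57 ± 0.058 at day 1). Psmb7, the trypsin-like subunit gene, went from 223, 183, 187 and 186 to 302, 265, 257 and 248 and then 225, 226, 223 and 234 CPM (0.46 ± 0.056). In all 3 genes the day 1 samples lay above the 3i samples without overlap. Of the structural beta genes, Psmb4 (0.51 ± 0.059), Psmb3 (0.42 ± 0.058), Psmb2 (0.30 ± 0.046) and Psmb1 (0.15 ± 0.047) rose as well, and the Psmb1 call was lost under library totals alone and without KO or KO+WT.

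All 3 inducible catalytic genes were higher in embryoid bodies by day 2, each on its own schedule. Psmb10, the counterpart of Psmb7, had reached its embryoid body level by day 1, with 9.71, 8.85, 6.36 and 6.71 CPM at 3i, 27.3, 26.3, 22.7 and 18.6 on day 1, then 24.4, 22.7, 23.9 and 22.9 on day 2. Against 3i the change was 1.58 ± 0.11, adjusted p = 3.61e-08 on day 1 and 1.58 ± 0.11, adjusted p = 3.59e-08 on day 2. Between the days it was -0.00052 ± 0.10, adjusted p = 0.997. Within 3i, f/f and KO were above both rescue lines. Psmb8, the counterpart of Psmb5, was nearly unread at 3i, with 1, 3, 4 and 2 reads, and it passed the filter through its embryoid body samples. It stood at 0.0398, 0.125, 0.215 and 0.0945 CPM at 3i, 0.36, 0.47, 0.731 and 0.437 on day 1, then 2.44, 4.28, 3.78 and 1.98 on day 2. Over the 4 lines, 10 reads at 3i became 41 at day 1, a depth-adjusted ratio of 4.45 (95% counting interval 2.19 to 9.96), and 285 at day 2, a ratio of 28.2 (15.1 to 59.4). The intervals cover counting error only. No test against 3i is read from this gene. Every line was higher at day 2 than at day 1. The fitted log2 change from 3i to day 1 was 2.08 and moved to 2.94 and 1.56 without either library of each pair.

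Psmb9, the counterpart of Psmb6, stood at 0.915, 1.59, 1.02 and 0.851 CPM at 3i, then 0.72, 1.64, 1.61 and 1.07 at day 1, then 2.39, 4.37, 2.95 and 2.27 at day 2. The first 2 states overlapped (0.19 ± 0.21, adjusted p = 0.44), and day 2 was above both in every line (1.44 ± 0.19, adjusted p = 1.9e-05 against 3i). Its reads over the 4 lines were 98, 104 and 271, and KO was the highest line in each state. Per kilobase, the inducible genes stayed a small part of each pair. Psmb8 made up 0.0159% to 0.1003% of the Psmb8 and Psmb5 level at 3i and 0.7199% to 1.85% at day 2. Psmb9 made up 0.311% to 0.6500% and 0.718% to 1.44% of its pair with Psmb6, and Psmb10 2.92% to 4.10% and 7.96% to 8.73% of its pair with Psmb7. Psmb11 had 0 to 4 reads per sample and no change is read from it.

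**Figure D2:**
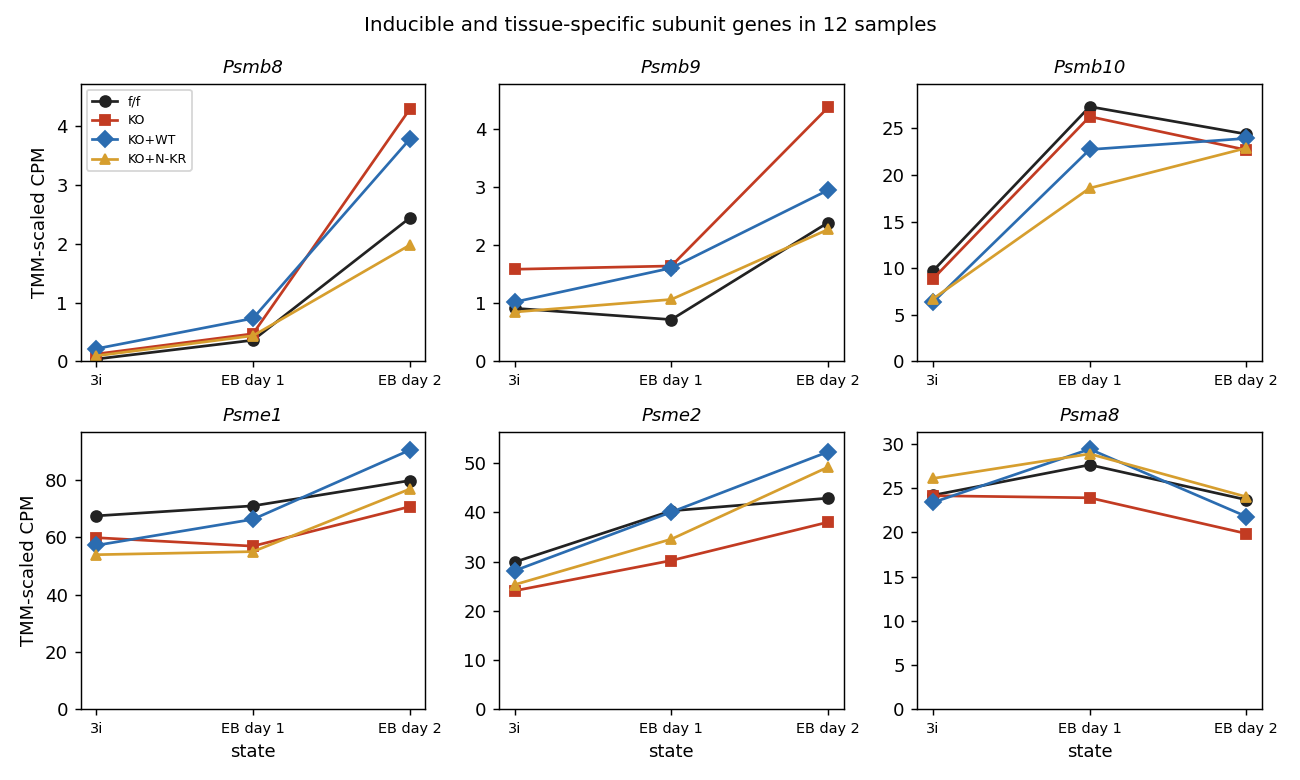
Level in TMM-scaled CPM (y axis, from 0, a scale of its own in each panel) of the 3 inducible catalytic genes, the interferon-induced activator genes Psme1 and Psme2 and the testis-type alpha gene Psma8, in 3i, EB day 1 and EB day 2 (x axis), with 1 point per line and state. Psmb10 is already high at day 1, Psmb8 and Psmb9 are highest at day 2 and reach 4.28 and 4.37 CPM in KO, and Psma8 stays between 19.9 and 29.4 CPM.

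Promoter sequence is shown for 4 genes. Psmb5 and Psmb6 are catalytic genes with a motif near the start. Psmc1, with Psmc4, had the highest day 1 fold changes among regulatory genes. Psmb8 was the inducible gene with the highest fold change at day 2. Each stretch is the 100 bases before the transcription start, read 5′ to 3′ on the gene's strand. It is from RefSeq on GRCm38.p6, with a searched motif in capitals. The count table was made on another build (mm9), so only the sequence is taken from here.
Psmb5, chr14:54617996-54618095, minus strand: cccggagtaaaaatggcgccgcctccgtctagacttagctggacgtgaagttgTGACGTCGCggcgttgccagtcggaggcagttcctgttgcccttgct
Psmb6, chr11:70525257-70525356, plus strand: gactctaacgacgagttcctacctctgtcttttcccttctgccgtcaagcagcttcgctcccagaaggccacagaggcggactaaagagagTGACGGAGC
Psmc1, chr12:100110102-100110201, plus strand: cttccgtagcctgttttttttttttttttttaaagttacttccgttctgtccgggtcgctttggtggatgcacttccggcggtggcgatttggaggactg
Psmb8, chr17:34198095-34198194, plus strand: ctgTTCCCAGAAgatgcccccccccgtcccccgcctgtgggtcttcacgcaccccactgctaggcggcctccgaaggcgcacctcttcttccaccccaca
Windows of 300 bases (250 before to 50 after the start) were found for 37 of the 44 genes. None was found for Psma8, Psmb1, Psmb2, Psmb7, Psmc3, Psmd3 and Psmd7. On either strand, TGACNNNGC, the antioxidant response element bound by NRF factors, occurred in 6 of the 37 (16.2%, against 14% of 27025 genes): Psmb5, Psmb6, Psmc6, Psmd9, Psmd12 and Psme4. CCAAT, the site of NF-Y, occurred in 14 (37.8%, against 41.1%). The interferon-stimulated response element occurred in 4 (10.8%, against 3.99%), namely Psmb3, Psmd4, Psmd9 and Psme1, and TTCNNNGAA, the gamma-activated site of STAT factors, in Psmb8 and Psmd2 (5.41%, against 9.55%). The marked Psmb8 match lies 97 to 89 bases before the start. None of the searched motifs lies in the Psmc1 stretch. These are matches of letters, no binding was measured, and a tie between motifs and the changes in level was not tested.

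In the regulatory particle, 5 of the 6 ATPase genes and 12 of the 14 non-ATPase genes rose at day 1. Psmc1 went from 226, 204, 212 and 204 CPM at 3i to 386, 369, 383 and 394 on day 1, then 256, 239, 266 and 297 on day 2. The 4 lines lay close together at 3i and at day 1, and ranged from 239 to 297 CPM at day 2. Day 1 stood far above 3i (0.86 ± 0.055, adjusted p = 2.25e-08). Psmc4, another ATPase of the ring, had the same size of rise (0.86 ± 0.05, adjusted p = 9e-09), from 131, 113, 120.1 and 125 to 234, 205, 224 and 222 CPM. Psmc2, Psmc3 and Psmc5 rose by 0.43, 0.47 and 0.51. Psmc6 alone of the ATPases did not pass (0.10 ± 0.044, adjusted p = 0.0549), with 216, 177, 185 and 187 CPM at 3i and 222, 194, 204 and 201 at day 1, although the day 1 value was the higher in all 4 lines.

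Psmd14 encodes the deubiquitinase that strips ubiquitin chains from substrates. It stood at 133, 118, 125 and 114 CPM at 3i and 212, 211, 209 and 203 at day 1 (0.77 ± 0.059, adjusted p = 1e-07), with no overlap. The lid genes Psmd12 (0.69 ± 0.054), Psmd6 (0.68 ± 0.055) and Psmd11 (0.54 ± 0.049) rose too. So did the scaffold genes Psmd1 (0.54 ± 0.049) and Psmd2 (0.36 ± 0.039) and the ubiquitin receptor gene Psmd4 (0.51 ± 0.053). Departing from most members were Psmd8, a lid gene (0.0076 ± 0.044, adjusted p = 0.89), and Psmd10, which encodes the assembly chaperone gankyrin (0.035 ± 0.071, adjusted p = 0.679). Psmd8 stood at 176, 150.2, 170.1 and 163 CPM at 3i and 183, 158, 165 and 157 at day 1, and 2 of 4 lines were higher at day 1. Psmd10 stood at 19.7, 20.5, 20.2 and 21.3 and 21.5, 22.8, 19.6 and 19.8 CPM, also higher in 2 of 4. The other assembly chaperone genes of the class, Psmd5 (0.27 ± 0.044) and Psmd9 (0.45 ± 0.087), passed the test upward.

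The activator genes split. Psme3, which encodes the nuclear activator, went from 184, 190.1, 203 and 179 CPM at 3i to 253, 264, 269 and 259.8 at day 1 (0.47 ± 0.052, adjusted p = 3.22e-06) and 228, 211, 231 and 244 at day 2, highest at day 1. Psme1 and Psme2 encode the interferon-induced activator ring. Psme1 did not pass at day 1 (0.057 ± 0.071, adjusted p = 0.494), with 67.4, 59.8, 57.2 and 53.9 CPM at 3i and 70.9, 56.9, 66.2 and 55 at day 1, and all 4 lines were highest at day 2, with 79.7, 70.6, 90.3 and 76.7 CPM (0.41 ± 0.07, adjusted p = 0.000178 against 3i). Psme2 stood at 29.9, 24.1, 28.2 and 25.3, then 40.3, 30.2, 40.1 and 34.6, then 42.9, 38, 52.3 and 49.2 CPM, with KO the lowest line in every state. It rose at day 1 (0.43 ± 0.077) and was further above 3i at day 2 (0.76 ± 0.076, adjusted p = 1.48e-06). Psme4, the gene of the large single-chain activator, stood at 319.6, 371, 403 and 382 CPM at 3i, 366, 383, 464 and 447 on day 1, then 409, 369, 403 and 413 on day 2. Its states overlapped, and the day 1 call (0.17 ± 0.061, adjusted p = 0.0258) was lost under library totals alone, with no filter and without KO+WT or KO+N-KR. Psmf1, which encodes the inhibitor PI31, stood at 32.5, 32.7, 31.9 and 35.6, 33, 36, 37.3 and 39.6 and 36.2, 35.6, 35.8 and 39.6 CPM and passed only at day 2 (0.15 ± 0.057, adjusted p = 0.0371). That call was lost with DESeq2, under library totals alone and without any 1 of the 4 lines.

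**Figure D3:**
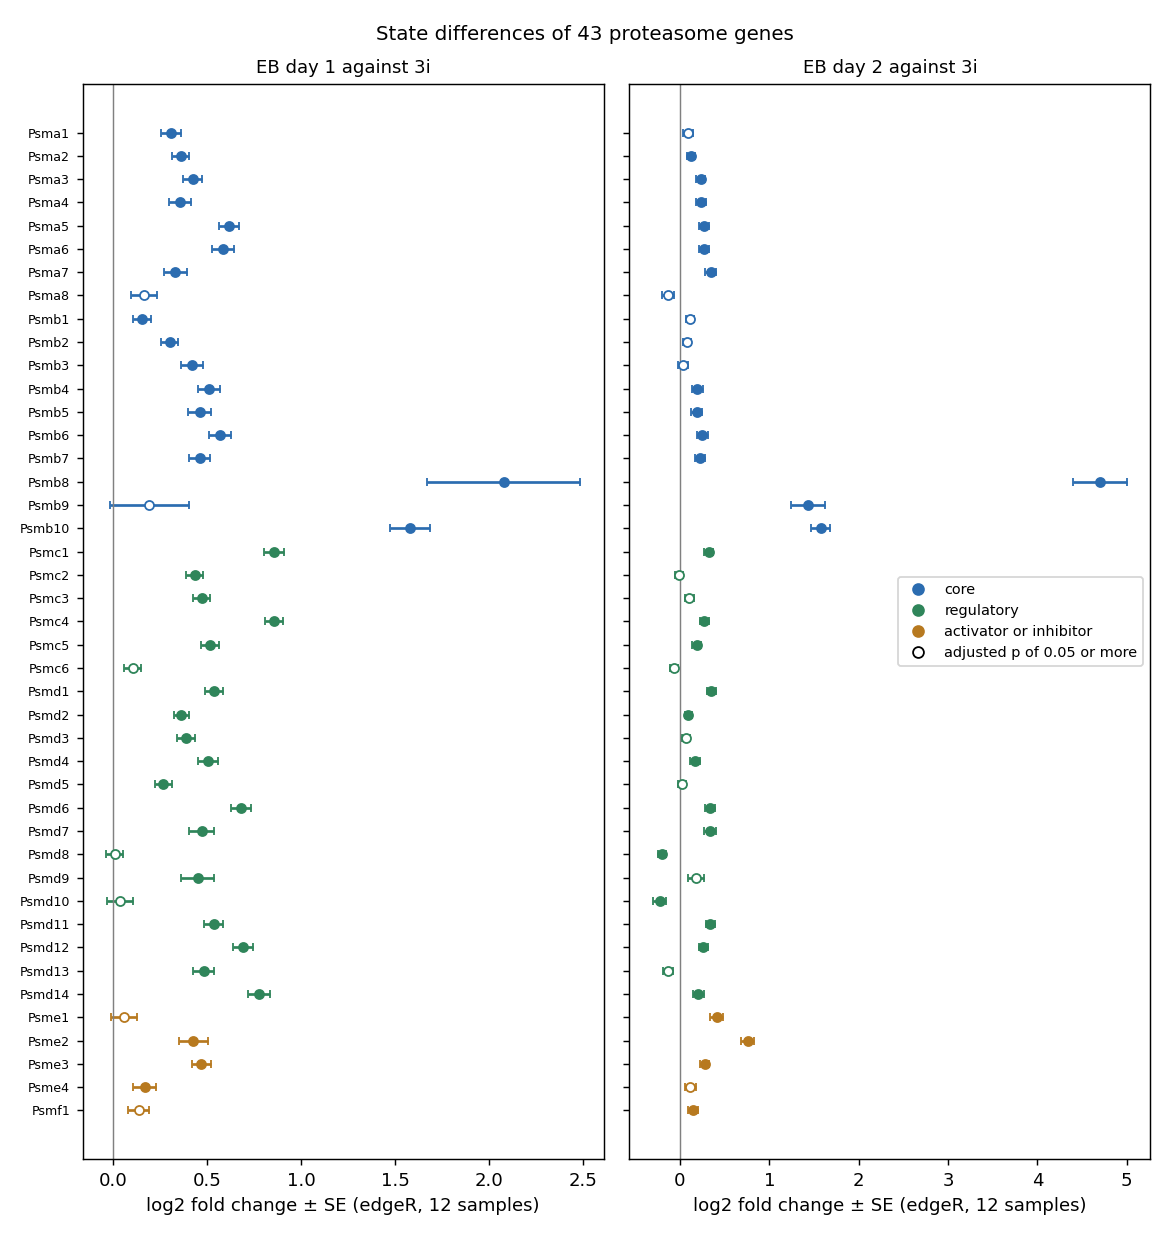
Log2 fold change with its SE (x axis, edgeR fit of 12 samples) of the 43 tested genes (y axis) at EB day 1 and EB day 2 against 3i, coloured by class, with open circles for genes whose adjusted p was 0.05 or more. Nearly all points lie right of 0 at day 1, with Psmb8 at 2.08 and Psmb10 at 1.58, and most lie closer to 0 at day 2, where Psmb8 reaches 4.70. Psmb8 passed the filter through its embryoid body samples, and its points are not read as tests.

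By day 2 most standard subunit genes had come back down. Against day 1, 32 of the 43 genes were lower, where 27.2% of all genes were, and 4 were higher, where 28.2% were (median -0.24, against 0.011 over all genes). In 31 of the 43 every day 2 sample lay below every day 1 sample, as in 20.2% of all genes. The 4 higher genes were Psmb8, Psmb9, Psme1 and Psme2. Without Psmb8, whose reads lay mostly at day 2 (285, against 41 at day 1), 3 of 42 were higher. Among regulatory genes 19 of 20 fell, all 6 ATPase genes among them, and among core genes 12 of 18. Psmd13, a lid gene, fell most (-0.61 ± 0.055, adjusted p = 1.23e-06), from 203, 189, 189 and 185 CPM at day 1 to 122, 121, 126 and 132 at day 2, against 154, 131, 134 and 131 CPM at 3i. Of its 4 day 2 values, 3 lay below the whole 3i range. Psmc4 (-0.59 ± 0.049), Psmd14 (-0.57 ± 0.058), Psmc1 (-0.54 ± 0.055) and Psmc2 (-0.44 ± 0.046) came next, with day 2 levels of 145, 138, 143 and 163 CPM for Psmc4, 134, 149, 133 and 148 for Psmd14 and 155, 146, 149.8 and 161 for Psmc2. Between these days 7 of 15 feeder markers rose and 4 fell.

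Against 3i, with the same 3i samples as above, 28 of the 43 genes were higher at day 2 and 2 were lower (background 33% and 30.5% of all genes; median 0.20, against 0.016), or 27 of 42 higher without Psmb8. The 2 were Psmd10 (-0.23 ± 0.072, adjusted p = 0.0131) and Psmd8 (-0.20 ± 0.044, adjusted p = 0.00154), at 16.9, 18.7, 17.3 and 16.8 and 155, 135, 141 and 144 CPM. The Psmd10 call was lost without replicate 1 of each pair (0.0769), without KO+WT (0.0504) and without KO+N-KR (0.0709). Scaling by library totals alone gave 25 higher and 5 lower, with Psma8, Psmc6 and Psmd13 added to the genes that fell. At 18 of 43 genes (17 of 42 without Psmb8) all day 2 samples lay above all 3i samples, against 24.5% of all genes. Leaving out Psmb8, the highest fold changes belonged to the inducible catalytic genes Psmb10 and Psmb9. Next were Psme2 and Psme1, the genes of the interferon-induced activator ring. Among standard genes, Psmd1 (0.35 ± 0.049), Psma7 (0.35 ± 0.061), Psmd11 (0.34 ± 0.049) and Psmd6 (0.33 ± 0.055) remained higher than at 3i.

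Within single lines, day 2 was set against 3i by size alone. By this rule (a 1.2-fold difference or more where the higher sample had 5 CPM, from 1 sample each and untested), 7 genes were higher at day 2 than at 3i in f/f, 10 in KO, 13 in KO+WT and 24 in KO+N-KR, and 1 was lower in each. All genes gave 20%, 17.2%, 20.2% and 21.6% higher and 20.1%, 19.2%, 20.9% and 23.2% lower. The median log2 ratio of the 43 genes was 0.054, 0.17, 0.20 and 0.35 in these lines. Whether the lines differ in this was not tested, since each has 1 sample per state. At day 1 the same rule gave 28, 33, 34 and 32 genes higher and 0 lower than at 3i, against 22.5%, 22.1%, 22.3% and 22.6% of all genes higher and 19.7%, 18.8%, 21.8% and 22.7% lower.

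Levels can be set against each other only per length. Divided by the length of the principal transcript (GENCODE M21, so not the build of the counts), the highest mean levels over the 12 samples were those of Psma7 at 232 CPM per kilobase, Psmb6 at 229, Psmb7 at 198 and Psmb4 at 198, with Psmc1 first among regulatory genes at 179.9. The lowest standard subunit gene was Psmd11 at 51.1 CPM per kilobase. The assembly chaperone genes were lower still, at 20.0 for Psmd5, 13.7 for Psmd10 and 8.65 for Psmd9. Psme4 and Psme1 stood at 60.7 and 60.3 CPM per kilobase, Psme3 at 85.0, Psme2 at 37.7 and Psmf1 at 9.32.

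Other genes of the pathway, from lists chosen beside the members, were read in the same fit, in which 32.4% of all genes were higher and 33.2% lower at day 1. At day 1, 4 of 5 assembly chaperone genes outside the naming rule rose and 0 fell (the unadjusted count is the same, and the fifth lay at 0.10), led by Psmg3 (0.69 ± 0.14), Psmg2 (0.47 ± 0.088) and Pomp (0.45 ± 0.065), which matures the core particle. Of 7 proteasome-bound proteins 5 rose and 0 fell, among them the ubiquitin receptor gene Adrm1 (0.57 ± 0.048) and the deubiquitinase genes Uchl5 (0.49 ± 0.066) and Usp14 (0.38 ± 0.043). The list of the NRF1 axis, the transcription factor that raises proteasome genes when the proteasome fails, had 3 of 9 higher and 4 lower, near the shares over all genes. Nfe2l1, the NRF1 gene, fell from 256, 209.7, 251 and 249 CPM at 3i to 217, 204, 243 and 214 at day 1 (-0.14 ± 0.048, adjusted p = 0.0231), with overlap. Ddi2, its processing protease gene (0.56 ± 0.062), and Vcp, which extracts it from the membrane (0.55 ± 0.046), rose. The rest of the 4 lower genes of this list were Keap1, Maff and Mafk. Keap1 went from 40.4, 48.0, 41.9 and 44.9 CPM at 3i to 30.6, 32.0, 27.9 and 31.3 at day 1. Maff went from 17.8, 17.1, 19.2 and 26.2 CPM to 16.4, 11.4, 12.4 and 13.9.

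Of 10 genes of interferon response and antigen presentation, 7 fell and 1 rose on day 1, where 33.2% and 32.4% of all genes did. By day 2, 6 were higher than at 3i, against 33% of all genes, and 3 were lower, near the 30.5% of all genes. The gene that rose at day 1 was Irf1, an interferon response transcription factor, at 31.1, 27.7, 32.1 and 25.3 CPM at 3i, 58.5, 54.2, 77.7 and 67.3 on day 1, then 81, 73.2, 97.3 and 87 on day 2 (1.14 ± 0.077, adjusted p = 3.54e-08, then 1.53 ± 0.076, adjusted p = 2.35e-09, both against 3i). Its states did not overlap between 3i and either day. B2m, the light chain of MHC class I, fell (-1.97 ± 0.083 at day 1 and -0.97 ± 0.077 at day 2). Tap1 and Tap2, the peptide transporter genes that neighbour Psmb9 and Psmb8 in the RefSeq gene order (Psmb9, Tap1, Psmb8, Tap2), fell at day 1 (-0.47 ± 0.13 and -0.82 ± 0.20) and stood above 3i at day 2 (1.01 ± 0.12 and 1.09 ± 0.17). Feeder cells can express genes of this list, and the feeder sums given above fell at day 1 as well. Their part in these changes was not tested.

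Between lines the differences were smaller. In KO against f/f, 7 of 43 genes were lower and 1 higher, where 4.32% and 4.45% of all genes were, and 37 of the 43 fold changes were below 0 (median -0.12, against 0.0034 over all genes). Under library totals alone 0 were lower and 1 higher (edgeR, 9 at an unadjusted p under 0.05), and DESeq2 gave the main counts. Without day 1 the fit called 0 genes of the set (6 at an unadjusted p under 0.05) and 0 of all genes tested. The tamoxifen limit given above holds for each of these. Cell state markers moved in the same comparison: 3 of 8 parietal endoderm genes and 2 of 9 naive pluripotency genes were higher and 2 of 6 formative epiblast genes lower, and their part in the proteasome differences was not tested.

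The genes lower in KO were Psme2 (-0.30 ± 0.087, adjusted p = 0.0485), Psmb5 (-0.25 ± 0.072, adjusted p = 0.0471), Psmb1 (-0.23 ± 0.055, adjusted p = 0.0266), Psmd4 (-0.22 ± 0.061, adjusted p = 0.041), Psma3 (-0.22 ± 0.057, adjusted p = 0.0363), Psmc6 (-0.21 ± 0.051, adjusted p = 0.0266) and Psmd8 (-0.21 ± 0.051, adjusted p = 0.0266). Each was lower in KO in all 3 states, and each call was lost under library totals alone, without 3i and without day 1. Over the 3 states Psmb5 read 139, 199 and 141 CPM for f/f, and KO read 115, 160.3 and 126. Psmb1 read 181, 208 and 185 CPM for f/f against 152, 174 and 164 for KO, and it was the only 1 of the 43 with every KO sample below every f/f sample, as were 3.57% of all genes. Psmd4 read 159, 223 and 163 against 128, 195 and 145 CPM, and Psma3 233, 315 and 252 against 199, 261 and 226, each with overlap between states. The gap in CPM was widest at day 1 and narrowest at day 2 for Psmb1, Psmb5 and Psma3. Both rescue lines were also below f/f at 3i in these genes, with 118 and 118 CPM for Psmb5.

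Psmb9 was the gene that was higher in KO (0.91 ± 0.22, adjusted p = 0.027), reading 1.59, 1.64 and 4.37 CPM over the 3 states against 0.915, 0.72 and 2.39 for f/f. These rest on 38, 35 and 98 reads against 23, 14 and 52. The call was lost without either library of each pair (adjusted p = 0.121 and 0.0539), without day 1 (0.221) or without day 2 (0.126). The line labelled KO+N-KR was lower than KO in this gene (-0.84 ± 0.22, adjusted p = 0.022), also in all 3 states, a call lost with DESeq2 (0.0555), without either library of each pair (0.111 and 0.0615) and without day 1 (0.0987) or day 2 (0.198). Psmb8 stood higher in KO than in f/f in all 3 states and did not pass (0.74 ± 0.30, adjusted p = 0.127). By the size rule, 7 genes were lower in KO at 3i, 4 at day 1 and 0 at day 2, and 0 were higher in any state. All genes gave 8.84%, 6.71% and 9.79% lower and 10.2%, 8.26% and 11.5% higher.

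Few proteasome genes were called between the rescue lines and KO. In KO+WT against KO, 1 gene was higher and 1 lower (7.1% and 8.73% of all genes). In KO+N-KR against KO, 0 were higher and 2 lower (6.77% and 8.67% of all genes, with 9 of 43 at an unadjusted p under 0.05 in either direction), and DESeq2 gave 1 higher (Psmc4) and 1 lower. These 2 comparisons share the KO samples. KO+N-KR against KO+WT gave 0 of 43 in either direction with edgeR and with DESeq2 (0.296% higher and 0.256% lower over all genes), with 2 and 1 at an unadjusted p under 0.05. The lowest adjusted p there was that of Psmb8 (-0.91 ± 0.31, adjusted p = 0.419).

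Psme2 was the gene higher in KO+WT than in KO (0.37 ± 0.087, adjusted p = 0.0132), reading 28.2, 40.1 and 52.3 CPM over the 3 states against 24.1, 30.2 and 38, a call lost without day 1 (0.34, adjusted p = 0.209). The KO+N-KR values of 25.3, 34.6 and 49.2 CPM did not pass against KO (0.22 ± 0.088, adjusted p = 0.11). Its KO level was the lowest of the 4 lines in all 3 states. Feeder markers, which summed to 1083, 178 and 188 CPM in KO+WT against 764, 168 and 147 CPM in KO, were higher there for 7 of 15 genes, and their part in the Psme2 difference was not tested.

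Psmd7 encodes the lid subunit that pairs with the Psmd14 deubiquitinase, and it was the gene lower in both rescue lines. It stood at 253, 241, 181 and 165 CPM at 3i, 344, 312, 257 and 246 on day 1, then 291, 262, 233 and 257 on day 2. At 3i and day 1 both rescue lines lay well below f/f and KO, and at day 2 KO+N-KR came close to KO. The difference was -0.29 ± 0.078, adjusted p = 0.0239 in KO+WT and -0.30 ± 0.078, adjusted p = 0.0208 in KO+N-KR against KO, and -0.41 ± 0.078, adjusted p = 0.00499 in KO+WT against f/f, where 3.65% of all genes were higher and 5.17% lower. It was the only 1 of the 43 called in KO+WT against f/f. Even so, 37 of the 43 fold changes there were below 0 (median -0.082, against 0.012 over all genes). An unadjusted p under 0.05 (edgeR) was reached by 16 of the 43. Library totals alone added Psme4 as higher, and without day 2 the count was 7, with Psme4 higher and Psma3, Psma6, Psmb5, Psmb6, Psmb7 and Psmd7 lower. Without day 1 none of the 3 calls held, with changes about as large (-0.30, -0.29 and -0.41, adjusted p = 0.227, 0.225 and 0.152). Without 3i the KO+N-KR change shrank to -0.18 and its call was lost (adjusted p = 0.1). KO was not called against f/f (-0.12 ± 0.077, adjusted p = 0.336). Feeder markers were higher in KO+WT than in f/f for 9 of 15 genes, and 0 of 15 were called in KO+N-KR against KO (edgeR, 2 at an unadjusted p under 0.05). Their part in the Psmd7 difference was not tested.

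**Figure D4:**
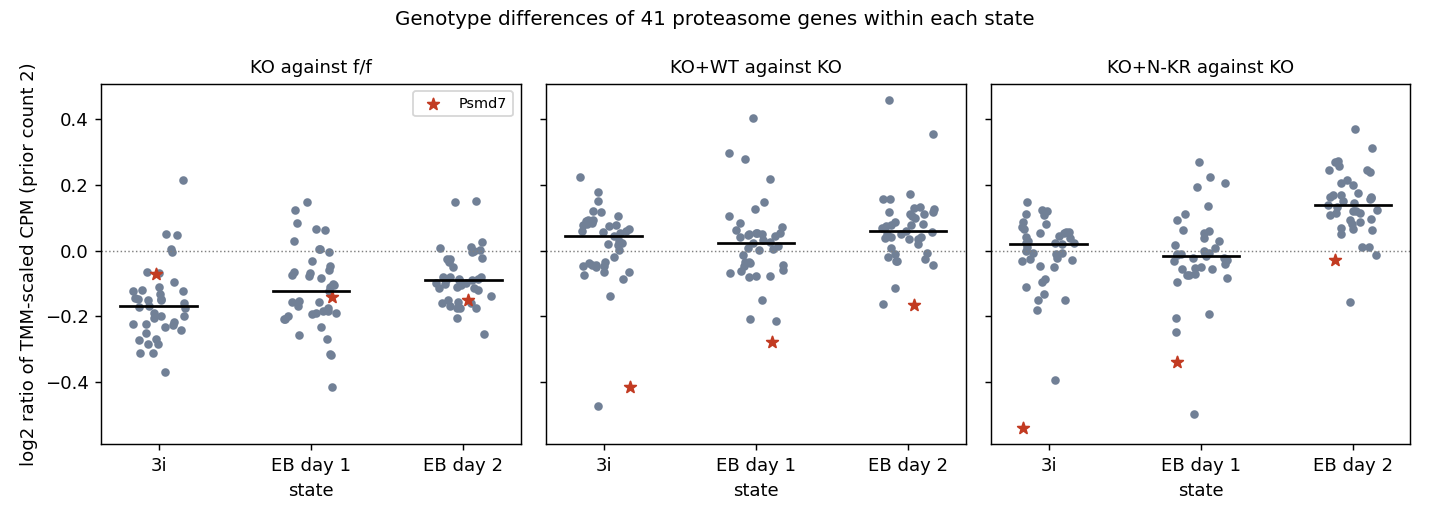
Log2 ratio of TMM-scaled CPM between lines (y axis, prior count 2) for 41 genes in each state (x axis), for KO against f/f, KO+WT against KO and KO+N-KR against KO, with 1 grey point per gene, a red star for Psmd7 and a black bar at the median. Psmb8, Psmb9 and Psmb11 are left out for their few reads. Most points of KO against f/f lie below 0 in every state, and Psmd7 lies at -0.41 in KO+WT and -0.54 in KO+N-KR at 3i.

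In the companion lists of the pathway, genes lower in both rescue lines than in KO included the Ecm29 gene AI314180, whose product binds the proteasome, and Ngly1, whose product removes glycans from NRF1. AI314180 fell in KO+WT and KO+N-KR against KO (-0.95 ± 0.12, adjusted p = 0.000272 and -1.04 ± 0.12, adjusted p = 0.000155), reading 57.2, 83.4 and 116 CPM for KO over the 3 states, 41.2, 35.1 and 54.2 for KO+WT and 33.9, 36.2 and 52.8 for KO+N-KR. KO was its highest line in every state, also above the f/f values of 51, 58.1 and 67 CPM (0.51 ± 0.12, adjusted p = 0.0226). Ngly1 fell as well (-0.59 ± 0.15 and -0.63 ± 0.15). Of 7 proteasome-bound proteins, 1 was lower and 1 higher in each rescue line against KO, where 8.73% and 7.1% of all genes were in KO+WT and 8.67% and 6.77% in KO+N-KR, so the count says little of this list. None of 5 assembly chaperone genes passed in either (edgeR, 2 and 2 at an unadjusted p under 0.05, lowest adjusted p 0.0839 and 0.0619).

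By the same rule of size, Psmd7 was lower in both rescue lines than in KO at 3i and again at day 1. Psmb10 was lower in both at 3i (-0.47 and -0.39) and in KO+N-KR at day 1 (-0.50). At 3i and day 1 these made 2 and 1 of the 43 genes in KO+WT and 2 and 2 in KO+N-KR. All genes gave 9.43% and 12.6% lower in KO+WT and 9.26% and 11.6% lower in KO+N-KR in these states, so the counts say little of this set. Higher than KO were 0, 3 and 2 genes in KO+WT over the 3 states and 0 and 1 in KO+N-KR at 3i and day 1. The shares of all genes higher there are not given here, so these counts are not read as particular to proteasome genes. At day 2, 38 of the 43 genes had a higher level in the line labelled KO+N-KR than in KO. Their median log2 ratio was 0.13, against 0.0090 over all genes. Past 1.2-fold were 4 genes (Psma7, Psma8, Psmc1 and Psme2), where 13.7% of all genes were, so that count says little of this set. Each line has 1 sample here, and the difference was not tested. At 3i and day 1 the medians of the same comparison were 0.013 and -0.022.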

How the data were processed

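RNA was measured in 24 mouse libraries. The authors deposited raw counts, whole numbers per gene symbol (23284), in 30 columns, of which 24 match these libraries and 6 were not used. The submitters' processing notes name STAR 2.5.2b, DESeq2 and mm9. Strand setting, annotation and counting tool were "not given in the sources used here". Thus reads shared with pseudogenes, overlapping or antisense genes cannot be told apart. Libraries of a group were summed, and p-values measure only the spread between these 12 samples. From the counts, edgeR 4.0.16 (R 4.3.3, limma 3.58.1) fitted line and state additively (TMM, filterByExpr, quasi-likelihood F-test, 6 residual degrees of freedom, common coefficient of variation 7.97%), tested on simulated data first. An SE is the fold change divided by the root of F. Alternatives were DESeq2 1.42.0, RLE scaling, library totals alone, no filter, 24 libraries with and without a replicate block, only the compared lines, and leaving out each library, line or state.

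Every gene of the set could be named, with full values for catalytic, inducible, activator and inhibitor genes, the 5 largest called changes in each direction and 3 that depart from most. Some genes of the companion lists are not reported here. The members and lists were chosen with earlier results of these data known.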

Additional observations from a re-analysis of the deposited data

Results flagged for a closer look

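Within each state the 4 lines were compared gene by gene for a value far from the other 3, by Dixon's 95% criterion. Chance alone marks about 1 in 20 such sets if they are independent. These were not: the sets of a state share the same 4 samples, and the summed core level holds core genes marked beside it. Of 138 sets, 12 were marked, and in 10 of them f/f was the highest line. The share over all genes was not taken, so the count is not read as particular to proteasome genes. At 3i these were Psma2 (175 CPM in f/f, against 155 to 158 in the other lines), Psma3 (233, against 195 to 199.7), Psmb5 (139, against 115 to 118), Psmb6 (173, against 139 to 143), Psmb7 (223, against 183 to 187), Psmd13 (154, against 131 to 134) and the summed core level (2465, against 2123 to 2140). At day 1 they were Psma6 (249, against 207 to 212), Psmb1 (208, against 170.3 to 176) and Psmb5 (199, against 155 to 160.3). At day 2, KO+N-KR was highest for Psmd9 (22.5, against 21.4 to 21.6) and Psmf1 (39.6, against 35.6 to 36.2). Each value is 1 sample, and tamoxifen was absent from f/f alone, which cannot be told apart from genotype.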

How the results depend on the processing

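Where its gene was tested, no single-gene call of the main fit changed direction under any alternative run. The state counts stayed within 1.5 times under all of them: day 1 against 3i gave 34 to 39 genes, day 2 against 3i 24 to 40, day 2 against day 1 32 to 38. Library totals alone moved the median of all genes at day 1 by about 0.1 (from -0.0069 to -0.106), and the class ratios to 0.32 for the core, 0.39 for the regulatory and 0.16 for the third class at day 1, -0.063 for regulatory in KO against f/f and 0.0058 in KO+WT against KO. It gave 1 gene in KO against f/f and 2 in KO+WT against f/f. Fitting only the 2 lines compared gave 2 in KO against f/f and 0 in KO+N-KR against KO. Leaving out a state or a library of each pair gave 0 to 5 in KO against f/f, 0 to 3 in KO+WT against KO, 0 to 3 in KO+N-KR against KO and 0 to 7 in KO+WT against f/f. For size calls within a state, 1.5-fold gave 1 gene in KO+WT against f/f at 3i and 0 in KO against f/f at 3i and day 1, in KO+WT and KO+N-KR against KO in all 3 states, in KO+N-KR against KO+WT at day 1 and in KO+WT against f/f at both days. Library totals alone gave 3 in KO against f/f at 3i, 1 in KO+N-KR against KO at day 2, 1 in KO+N-KR against KO+WT at day 1 and 3 in KO+WT against f/f at day 1. A minimum of 10 CPM gave 1 in each rescue line against KO at 3i. Without a library of each pair, size calls ran from 0 to 2 in KO against f/f at day 2, 2 to 6 in KO+N-KR against KO at day 2, 0 to 2 in KO+N-KR against KO+WT at 3i, 1 to 1 at day 1, 0 to 1 at day 2, and 1 to 2 in KO+WT against f/f at day 2. The cause of these shifts was not tested, though a higher fold cannot add size calls by construction.

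The replicate numbers did not pair the libraries: over 66 pairs of groups the correlation of same-numbered deviations ran from -0.046 to 0.035. With 24 libraries and a replicate block, 27 genes were called in KO against f/f, 7 in KO+WT against KO, 14 in KO+N-KR against KO, 1 in KO+N-KR against KO+WT and 18 in KO+WT against f/f. Without the block the counts were 27, 7, 14, 1 and 19. Over all 14254 genes tested, the fit with the block called 2328 higher and 2418 lower in KO against f/f. It called 2706 and 2607 in KO+WT against KO, and 2752 and 2604 in KO+N-KR against KO. It called 300 and 300 in KO+N-KR against KO+WT, and 2097 and 2018 in KO+WT against f/f. The fits with 24 libraries test differences against noise near that of repeated sequencing.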

Other observations

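Other multi-subunit complexes of housekeeping function, read from companion lists, also changed at day 1. All 8 genes of the CCT chaperonin, which folds actin and tubulin, rose against 3i (median 0.31), with Cct3 (0.70 ± 0.045) and Cct6a (0.59 ± 0.043) first. All 9 genes of the COP9 signalosome, a relative of the proteasome lid that removes NEDD8 from cullins, rose too (median 0.49), led by Cops3 (0.74 ± 0.045) and Cops4 (0.71 ± 0.051). Of 12 eIF3 translation initiation genes 8 rose and 1 fell (median 0.22). From day 1 to day 2, 8 of 9 COP9 genes fell (median -0.34), against 3 of 8 CCT genes (median -0.064) and 7 of 12 eIF3 genes, where 1 rose (median -0.19). All genes tested had 32.4% higher at day 1 and, at day 2 against day 1, 27.2% lower and 28.2% higher. In KO against f/f, 3 CCT genes, 1 COP9 gene and 5 eIF3 genes were lower and 0 higher (edgeR, with 7, 3 and 7 at an unadjusted p under 0.05 in either direction), where 4.32% of all genes were lower and 4.45% higher.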
